A study of Homo sapiens with 2 samples.

Results

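The gene expression of the co-cultured controls was compared between the controls grown beside A2780CBN and beside A2780CBNDXL, using only the control channel of all 8 arrays. All cells derive from A2780, an established line of human ovarian carcinoma, grown in RPMI 1640 medium. A2780CBN was selected in rising doses of carboplatin, to 22.2 µM, and A2780CBNDXL in carboplatin and docetaxel raised together. For this combination the labels give a single concentration, 8.02 µM, and no separate one for docetaxel. In the paper it is the carboplatin part of the inhibitory concentration of both drugs given together. The terminal doses of both drugs are others there, docetaxel being far lower than carboplatin. The controls are unselected A2780 cells kept in culture alongside a resistant line. The labels give both controls the name A2780CC, whereas the methods state that each resistant line had a control of its own. Each control was 1 pool of RNA from 3 isolations and was repeated on 4 arrays, with the control in Cy3 (forward labelling) and in Cy5 (reverse labelling) on each of 2 slides. The spread between these arrays comes from labelling and hybridization, and no culture was repeated, so differences carry no p-value. In such pooled RNA, fewer cells of a type and less RNA per cell cannot be told apart.

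Of 41000 probes under 30238 gene names, those well above background in the control channel on all 8 arrays were kept, which left 22613 probes for 16637 genes (55.0% of the names). For each gene the processed signal, in arbitrary fluorescence units, of the control beside A2780CBN was subtracted on the log2 scale from that of the control beside A2780CBNDXL in 4 pairs of arrays matched for slide and labelling direction, and each pair was centred on its median. A difference above 0 is higher beside A2780CBNDXL. A gene was called when its mean difference was at least 1, which is 2-fold, and its sign was the same in all 4 pairs. Differences are given as mean ± SD over the 4 pairs.

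A control passaged beside a drug-selected line is meant to separate the changes brought by the drug from those that come with time in culture. Passaged populations of one line can nevertheless drift apart, and transcript levels in culture follow oxygen supply and cell density through the HIF transcription factors and follow interferon through STAT and IRF factors. HIF raises genes of glycolysis and of mitochondrial turnover, while interferons raise antiviral genes and the antigen presentation genes of the MHC region.

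Between the controls 529 of 16637 genes were called (3.18%), of which 385 were higher beside A2780CBNDXL (2.31%) and 144 were lower (0.866%). The higher genes thus made up 72.8% of the calls. Normexp background correction of the raw intensities with loess and Aquantile normalization gave 157 calls in place of 529, 121 higher and 36 lower. At 3-fold or more there were 87 higher and 26 lower genes, at 4-fold or more 34 and 2, and at 8-fold or more 4 and 0. Most genes differed little, with 82.8% of all genes within 0.5 of 0 and a median size of the difference of 0.23. The spread of the difference over genes was 0.42 (SD), against 1.00 for A2780CBNDXL minus A2780CBN on the same genes and arrays. By the same rule 2167 genes (13.0%) were called between the resistant lines. The background filter was set on the control channel only. Signals of the lines near background, such as HAND2 at 5.78 in A2780CBN, thus enter the values of the lines but not those of the controls. The signals of the 4 arrays of one control lay entirely on one side of the other control's in 508 of the 529 called genes, and in 18.2% of all genes. Separate arrays of a called gene, given below, thus add little to its call.

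The labelling direction moved with many of these values. Over genes, the differences of the forward pairs correlated across slides at 0.61 and those of the reverse pairs at 0.89, while forward and reverse pairs correlated at 0.11 to 0.40. Pairs of one direction share the dye of the control, while the probes are the same in all 4 pairs. The forward pairs alone gave 783 calls, of which 414 were higher, and the reverse pairs alone gave 1330, of which 757 were higher. Of the 529 called genes, 217 higher and 55 lower genes reached 2-fold in the mean of each direction. Repeats of 1 control give the size of the error by the same limit on 2 pairs, with 419 genes (2.52%) called between slides for the control beside A2780CBN and 590 (3.55%) for the control beside A2780CBNDXL. Between Cy5 and Cy3 on both slides they gave 125 genes (0.751%) and 410 genes (2.46%). Before centring, the pair medians were -0.06, 0.21, 0.23 and 0.09, and without centring 516 genes were called higher and 83 lower. Other probes of the called genes had the same sign in 106 of 114 cases.

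**Figure D1:**
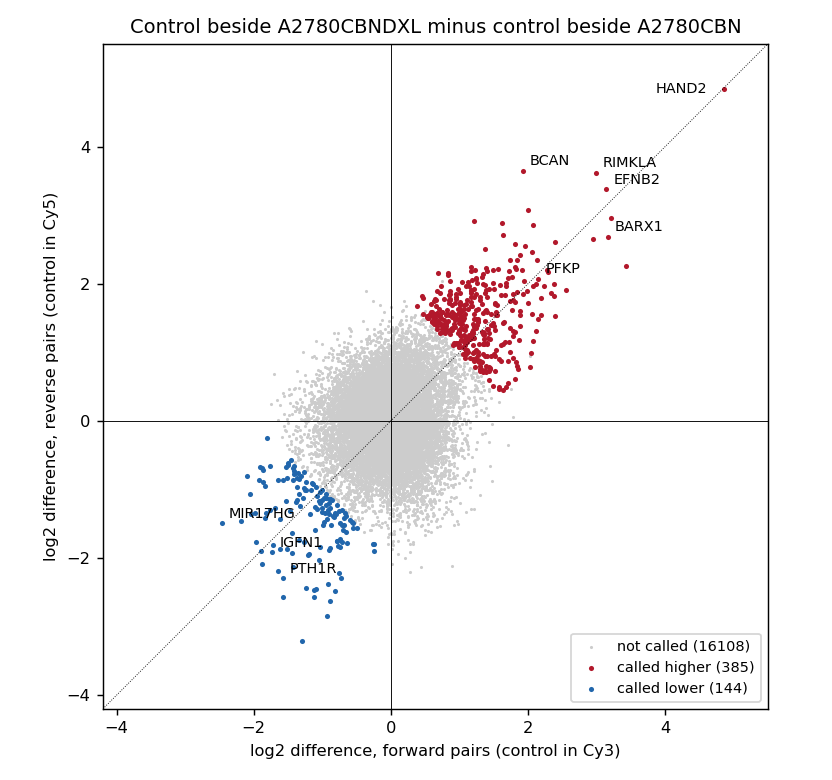
Each point is 1 of 16637 genes, with the mean log2 difference between the controls in the forward pairs (control in Cy3) on the x axis and in the reverse pairs (control in Cy5) on the y axis, red for the 385 called higher and blue for the 144 called lower beside A2780CBNDXL. HAND2 and PFKP lie on the dotted line of equal values, while BCAN lies above it and the bulk of the genes shows little relation between both directions.

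HAND2, a transcription factor of heart, limb and uterine stroma, differed more than any other called gene. Its probe is at chr4:174684848-174684907 on NCBI36. Its signal in the control beside A2780CBN was 62.3, 73.5, 49.3 and 66.8 on slide 1 forward, slide 1 reverse, slide 2 forward and slide 2 reverse, and 1616, 2377, 1824 and 2097 in the control beside A2780CBNDXL. Every array of the latter lay far above every array of the former, and the difference was 4.85 ± 0.10, or 28.9-fold. In the resistant lines themselves the mean signal of HAND2 was 5.78 in A2780CBN and 17424 in A2780CBNDXL. NBLA00301, the antisense transcript now named HAND2-AS1, was well above background on 4 arrays of the control beside A2780CBNDXL, at 162, 671, 504 and 613, and on 0 arrays of the other control.

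RIMKLA, an enzyme that makes the neuropeptide N-acetylaspartylglutamate, had signals of 167, 116, 158 and 136 beside A2780CBN and of 1265, 1733, 1487 and 1715 beside A2780CBNDXL. Its difference was 3.31 ± 0.37, and 2.48 on its other probe. EFNB2, the membrane-bound ligand ephrin-B2, went from 74.5, 72.7, 65.3 and 72.8 to 611, 961, 696 and 739, a difference of 3.26 ± 0.18. Neither gene had arrays that overlapped between the controls. BARX1, a homeobox transcription factor, had signals of 46.4, 63.3, 46.3 and 57.7 against 443, 534, 440 and 353, a difference of 2.93 ± 0.33. In A2780CBNDXL the BARX1 signal was 3510, and in A2780CBN it was 66.3. The arrays of the controls were again separate.

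Of the other genes among the 10 with the largest differences, DCN, which encodes the matrix proteoglycan decorin, had signals of 47.6, 51.3, 53.8 and 109 beside A2780CBN and of 376, 587, 461 and 468 beside A2780CBNDXL (2.80 ± 0.56). DTNA, the dystrophin-associated alpha-dystrobrevin, differed by 2.51 ± 0.16, the membrane lipid transporter ATP8B3 by 2.47 ± 0.48, and TM4SF4, a membrane protein with 4 spans, by 2.26 ± 0.31. BCAN, which encodes brevican of the brain matrix, differed by 2.79 ± 1.01 on its brighter probe and by -0.57 on its other probe, so that its direction depended on the probe.

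Among the lower genes, MIR17HG, the host transcript of the miR-17-92 cluster, had the largest difference of the named genes. It had signals of 2401, 1809, 2137 and 1745 beside A2780CBN and of 351, 696, 538 and 705 beside A2780CBNDXL, a difference of -1.98 ± 0.60, and -1.16 on its other probe. PTH1R, the parathyroid hormone receptor, had signals of 205, 237, 161 and 214 against 60.4, 61.2, 69.1 and 42.8 (-1.94 ± 0.44). All arrays of the control beside A2780CBNDXL lay below those of the other control for both genes. IGFN1, known from skeletal muscle, had signals of 680, 580, 615 and 560 against 199, 166, 214 and 171, and its SD was the smallest of the 10 (-1.82 ± 0.14). SNHG7, a host transcript of small nucleolar RNAs, differed by -1.83 ± 0.74.

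The leucine-rich repeat membrane protein LRRN3 differed by -1.70 ± 0.40, ENOX1, a cell surface oxidase, by -1.62 ± 0.28, and the small nucleolar RNA SNORA70 by -1.58 ± 0.48. The chloride channel family member TTYH1 differed by -1.58 ± 0.28, C13orf31, now LACC1, by -1.56 ± 0.61, and CYP27B1, the enzyme that activates vitamin D, by -1.54 ± 0.27. None of these 6 genes had overlapping arrays, as was so for 96.0% of all called genes. Gene names other than accessions were given for 68 of the 144 lower genes (47.2%), for 318 of the 385 higher genes (82.6%) and for 72.2% of all genes. The called genes were dimmer than the rest, with a median log2 signal of 8.47 for the higher and 8.14 for the lower genes against 9.97 over all genes, and 330 of 13785 genes were called when the signal had to reach 100 on all 8 arrays.

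**Figure D2:**
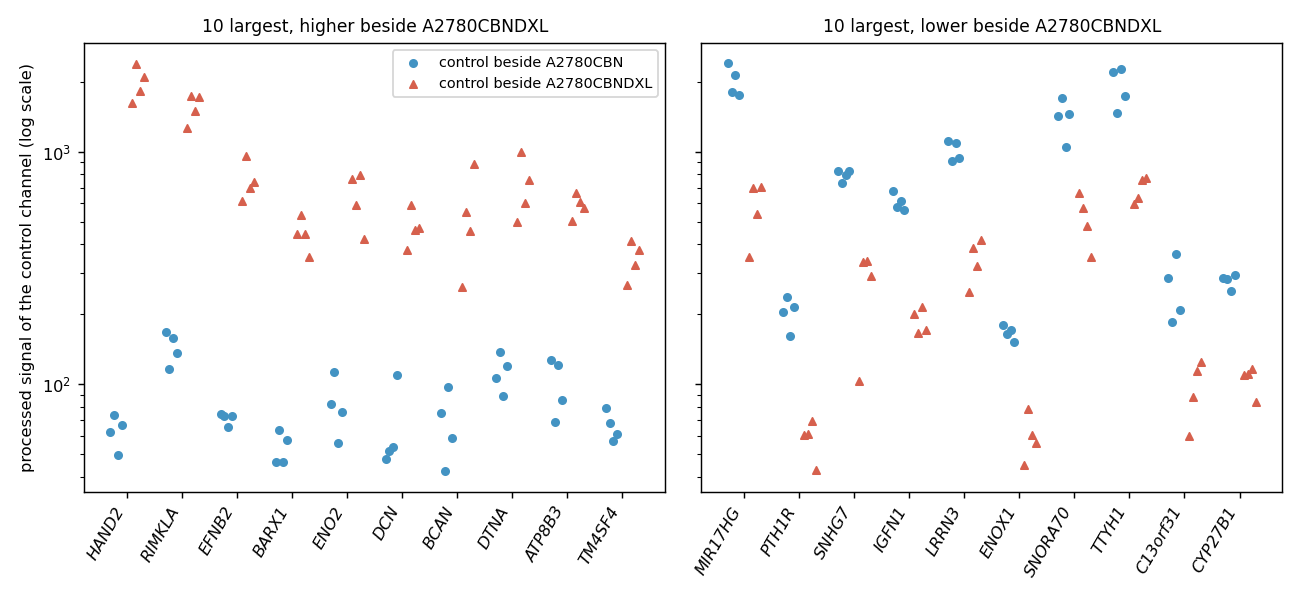
Processed control signal, on a log axis in arbitrary units, of the 10 highest and the 10 lowest named genes by mean difference, with 4 arrays of the control beside A2780CBN (circles) and 4 of the control beside A2780CBNDXL (triangles), in the order slide 1 forward, slide 1 reverse, slide 2 forward and slide 2 reverse. The groups of 4 arrays do not overlap in any of the 20 genes, nor in 96.0% of all called genes. The SNHG7 triangle of slide 1 forward lies well below the other 3.

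Hypoxia and glycolysis genes were higher beside A2780CBNDXL. Of 25 listed genes 21 were measured, 9 were called higher and 0 lower, and 18 were above 0. The median difference was 0.82, against -0.004 over all genes, of which 2.31% were called higher and 0.866% lower. It was 0.86 in the forward and 0.79 in the reverse pairs. Several of these genes carry the HIF motif in their promoters, and 3 that were called higher are shown here, with the letters ACGTG or GCGTG, searched on both strands and allowed to overlap, in capitals. These are the 250 bases upstream of the RefSeq start on GRCh38.p14, at chr17:28576896-28577145 on the minus strand for ALDOC, chr10:131981924-131982173 on the minus strand for BNIP3 and chr4:185396591-185396840 on the plus strand for ANKRD37.
ALDOC: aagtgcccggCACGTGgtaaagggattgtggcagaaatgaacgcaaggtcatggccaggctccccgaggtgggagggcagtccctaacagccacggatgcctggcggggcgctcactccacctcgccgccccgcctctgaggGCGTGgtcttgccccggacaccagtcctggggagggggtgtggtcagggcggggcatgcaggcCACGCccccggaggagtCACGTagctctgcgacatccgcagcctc
BNIP3: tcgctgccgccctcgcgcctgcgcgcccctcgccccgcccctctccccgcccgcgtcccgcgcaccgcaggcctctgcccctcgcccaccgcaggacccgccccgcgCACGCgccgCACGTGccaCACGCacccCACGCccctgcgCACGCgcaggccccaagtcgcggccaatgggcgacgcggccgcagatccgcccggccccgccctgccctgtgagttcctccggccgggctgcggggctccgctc
ANKRD37: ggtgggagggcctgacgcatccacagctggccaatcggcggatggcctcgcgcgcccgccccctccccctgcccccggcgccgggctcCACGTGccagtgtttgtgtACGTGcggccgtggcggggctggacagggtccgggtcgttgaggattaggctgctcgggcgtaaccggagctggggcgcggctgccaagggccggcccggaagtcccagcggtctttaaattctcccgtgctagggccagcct
Of the 9 called members 8 had a promoter entry, and 8 of these held the motif. It was also in 9 of 10 measured members that were not called and in 47.4% of 27305 genes. For a gene with several listed starts, the first start with a match was taken, in every group alike. Counted by promoter, 43.2% of 35116 held it.

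Among the glycolytic enzymes, ENO2, the neuronal enolase, had signals of 82.0, 113, 55.8 and 76.1 beside A2780CBN and of 760, 589, 790 and 419 beside A2780CBNDXL (2.85 ± 0.69). PFKP, the platelet phosphofructokinase, had 1879, 1813, 1770 and 1890 against 8192, 9381, 8984 and 8035, a difference of 2.11 ± 0.08 that was nearly the same in every pair. ALDOC, aldolase C, had 582, 721, 444 and 548 against 2508, 2265, 2298 and 1694 (1.82 ± 0.39). All 3 genes had separate arrays, as had 96.0% of called genes. They reached 2-fold in both labelling directions, as did 217 of the 385 higher genes. PDK1, a kinase that inhibits pyruvate dehydrogenase, differed by 1.61 ± 0.24, and by 1.69 on its other probe. Members of glycolysis that were not called included PGK1 at 0.87 ± 0.10, HK2 at 0.82 ± 0.44 and LDHA at 0.47 ± 0.24, while TPI1 was at 0.27, GPI at 0.21, PFKL at -0.03 and ALDOA at -0.16. The glucose transporters SLC2A1 and SLC2A3 were at 0.65 ± 0.86 and 0.66 ± 0.37.

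Outside glycolysis, BNIP3, a mitochondrial receptor for autophagy, had signals of 18710, 17022, 17357 and 17001 against 53796, 63791, 52079 and 48624 (1.51 ± 0.15). Its relative BNIP3L differed by 1.66 ± 0.60. Both were high in the control beside A2780CBNDXL on every array. The secreted peptide ADM differed by 1.57 ± 0.53, ANKRD37 by 1.32 ± 0.54 and the collagen prolyl hydroxylase subunit P4HA1 by 1.13 ± 0.67, while VEGFA, the vascular growth factor, was at -0.04. CA9, a carbonic anhydrase that serves as a hypoxia marker, was well above background on 4 arrays beside A2780CBNDXL (253, 178, 218 and 152) and on 0 arrays beside A2780CBN. After scaling between arrays it was at least 8.38-fold higher beside A2780CBNDXL. NDRG1 was also detected on 4 and 0 arrays, but close to background, at a mean signal of 38.5 against 20.8 and a bound of 1.585-fold. EGLN3 was detected on none.

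Interferon-stimulated genes were higher as well. Of 25 listed genes 19 were measured and all 19 were above 0. The calls were 10 higher and 0 lower, against 2.31% higher and 0.866% lower over all genes. The median difference of the list was 1.15, with 1.17 in the forward and 0.95 in the reverse pairs. The interferon response motif, spelled GAAA, any 2 bases and GAAA again and searched on both strands with overlaps allowed, is in capitals in the same upstream window of 3 called members. These are at chr10:89392373-89392622 on the plus strand for IFIT1, chr19:17405631-17405880 on the minus strand for BST2 and chr12:112938224-112938473 on the plus strand for OAS3.
IFIT1: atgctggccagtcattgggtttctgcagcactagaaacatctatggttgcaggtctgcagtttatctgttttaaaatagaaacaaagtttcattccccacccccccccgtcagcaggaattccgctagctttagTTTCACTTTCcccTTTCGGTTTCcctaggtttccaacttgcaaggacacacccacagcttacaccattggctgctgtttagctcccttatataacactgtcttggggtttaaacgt
BST2: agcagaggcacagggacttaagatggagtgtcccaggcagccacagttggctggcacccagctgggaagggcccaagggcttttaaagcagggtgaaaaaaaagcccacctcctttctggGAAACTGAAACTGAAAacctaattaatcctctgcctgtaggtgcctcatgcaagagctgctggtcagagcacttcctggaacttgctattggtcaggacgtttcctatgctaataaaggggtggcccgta
OAS3: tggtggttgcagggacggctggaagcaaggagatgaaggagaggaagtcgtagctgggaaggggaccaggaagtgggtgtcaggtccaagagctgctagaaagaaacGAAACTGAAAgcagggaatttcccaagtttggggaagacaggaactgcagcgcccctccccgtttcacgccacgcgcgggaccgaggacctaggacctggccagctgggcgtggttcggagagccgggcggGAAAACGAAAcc
With the start chosen in the same way, the motif was in 7 of 8 called members with an entry. It was in 4 of 7 measured members that were not called, in 3.71% of 27305 genes and in 3.02% of 35116 promoters. A match describes the letters of this window and is not evidence of binding.

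IFIT1, an antiviral protein that binds foreign RNA, had signals of 8457, 7478, 8889 and 7351 beside A2780CBN and of 26733, 27193, 26288 and 26525 beside A2780CBNDXL (1.61 ± 0.19). BST2, or tetherin, which holds back budding virus, had 5228, 4611, 4629 and 4632 against 19193, 13515, 16755 and 10857 (1.51 ± 0.35). The arrays of the controls were separate for both. IFITM1, which blocks viral entry, differed by 1.53 ± 0.14, IFIT2 by 1.71 ± 0.63 and IFIT3 by 1.32 ± 0.17. The viral RNA sensor RIGI, listed as DDX58, was at 1.46 ± 0.72, the antiviral GTPase MX1 at 1.15 ± 0.24 and PARP9, a partner of DTX3L, at 1.24 ± 0.37. OAS3 was at 1.55 ± 0.33, but at 0.35 on its other probe.

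The 9 measured members that were not called lay between 0.21 for USP18 and 0.90 for DTX3L. OAS1 and IRF7 were well above background in neither control, and ISG15 passed on 4 arrays of the control beside A2780CBN and on 3 of the other. A spot left out as an outlier counts as not passing, so a missing array need not mean a weak signal. IFI16, an interferon-inducible DNA sensor outside the list, was detected beside A2780CBNDXL only, at 224, 470, 275 and 316, which was at least 12.7-fold higher. It was picked by this detection, so it adds no support to the list. In the lines its signal was 20473 in A2780CBNDXL and 71.4 in A2780CBN. With normexp background correction, loess and Aquantile normalization 5 interferon members were called. In that setting 121 of all 16637 genes were called higher and 36 lower. In both lists the size of the difference varied with the labelling, and 7 of the 9 hypoxia members and 6 of the 10 interferon members reached 2-fold in each labelling direction. Of all 385 genes called higher, 217 did so.

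**Figure D3:**
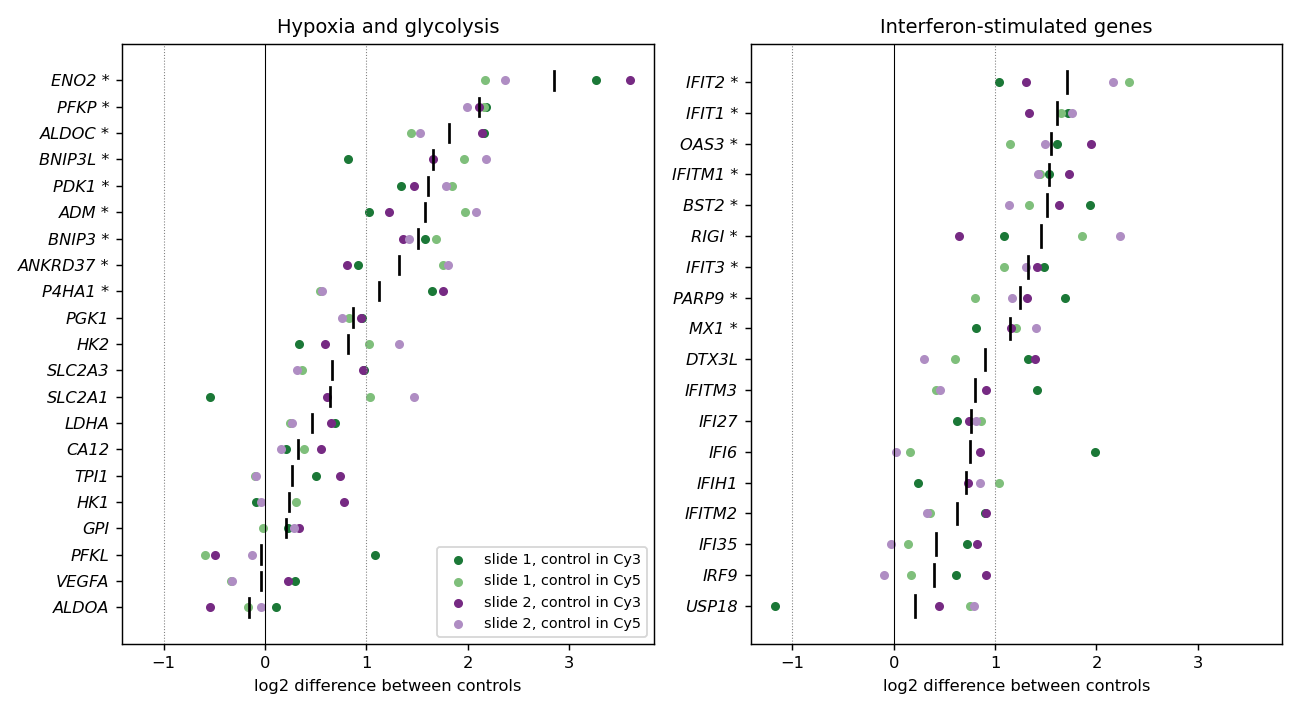
Log2 difference between the controls for the 21 measured hypoxia and glycolysis genes and 18 of the 19 measured interferon-stimulated genes, with 1 point per matched pair of arrays, a bar for the mean and a star for called genes. The called genes shown, 9 in each panel, have all 4 points to the right of 0, and the pairs with the control in Cy3 and in Cy5 separate in ADM, P4HA1 and IFIT2.

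Antigen presentation genes mostly showed the same direction. They were picked after their values were seen, so they carry no test and no independent support. B2M, the light chain of MHC class I, had signals of 11128, 10112, 9060 and 9159 beside A2780CBN and of 21329, 34684, 23523 and 26353 beside A2780CBNDXL (1.28 ± 0.26). In the MHC region of chromosome 6, taken from 29000000 to 34000000 on NCBI36, 12 of 22 HLA, peptide transporter and immunoproteasome genes were called higher and 0 lower, with a median of 1.15. The other 141 genes of that region had 13 higher and 3 lower calls and a median of -0.05, and over all genes 2.31% were called higher and 0.866% lower. The peptide transporter TAP1 was at 1.74 ± 0.19, the immunoproteasome subunit PSMB9 at 1.78 ± 0.12, HLA-B at 1.41 ± 0.77 and HLA-DPB1 at 2.02 ± 0.26. HLA-DOB, HLA-DOA and HLA-DRB1 lay below 0, at -0.49, -0.25 and -0.07, and TAP2 was at 0.03. Probes of HLA genes can bind near-identical copies, so the values of single HLA genes are uncertain. In the resistant lines the median of these 22 genes was -2.18, that is, lower in A2780CBNDXL than in A2780CBN. This median is opposite in sign to that of the controls, although HLA-DPB1 at 2.71 and HLA-DQB2 at 0.18 were higher in A2780CBNDXL.

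Matrix genes differed in part. Of 25 listed, 17 were measured, 3 were called higher and 0 lower (2.31% and 0.866% over all genes), and the median was 0.24. COL1A2, a chain of type I collagen, had signals of 1739, 1578, 1376 and 1439 against 6792, 7258, 7035 and 5876 (2.02 ± 0.08), whereas its partner COL1A1 was at 0.34 ± 0.16. FBN2, fibrillin 2, was at 1.22 ± 0.07 and DCN is given above. COL1A2, DCN and COL1A1 are also fibroblast markers, of which 5 of 7 were measured, 2 were called higher and the median was 0.34. Their summed signal was 17687 beside A2780CBN and 27395 beside A2780CBNDXL, LUM was detected on 0 and 4 arrays, and PDGFRA was at -0.22 ± 0.22. A part of fibroblast-like cells in these differences was not tested.

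Cholesterol synthesis genes lay mostly above 0, with 22 of 24 measured, 18 above 0 and a median of 0.53. Of these 3 were called higher and 0 lower (2.31% and 0.866% over all genes). HMGCS1, an early enzyme of the mevalonate pathway, had signals of 2739, 2584, 2170 and 2005 against 5368, 8227, 5406 and 6056 (1.27 ± 0.24). HSD17B7, of the later sterol steps, was at 1.32 ± 0.08 and INSIG1, a sterol sensor that is itself induced when sterol is low, at 1.05 ± 0.20. MSMO1 and STARD4, a sterol oxidase and a sterol carrier, were at 0.98 ± 0.29 and 0.95 ± 0.23, neither of them called.

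Of the stress and growth lists, few members were called, and over all genes 3.18% were. In lists of this size, 1 call or none does not set a list apart from all genes. TRIB3, a pseudokinase induced by ATF4, was the single call among 23 measured ATF4 and amino acid stress genes (1.03 ± 0.58, list median 0.13), with SLC7A11, the cystine transporter, at -0.93 ± 0.60. EGR1 was the single call among 15 measured immediate early genes (1.02 ± 0.65, median 0.46) and PLK2 among 20 measured p53 targets (1.12 ± 0.46, median 0.05), where CDKN1A was at -0.38 and MDM2 at 0.29. TAGLN, an actin-binding protein, was the single lower call among 17 measured SRF and YAP targets, at 4712, 6480, 5074 and 6221 against 2819, 2088, 3190 and 2105 (-1.27 ± 0.57, -1.34 on its other probe), and 3 of these 17 genes were above 0 (median -0.23).

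No member was called among 23 measured proliferation genes (median -0.03, range -0.44 to 0.30), 15 endoplasmic reticulum chaperones (0.16), 16 NRF2 targets (0.16), 14 heat shock genes (-0.03), 14 histone genes (-0.24), 7 metallothioneins (0.05) and 3 cancer-testis antigens (-0.09). With 3.18% of all genes called, 0 calls in lists this small say little about them. Among 12 housekeeping genes B2M was the single call, the median was 0.22, ACTB was at -0.03 ± 0.82 and GAPDH at 0.24 ± 0.80.

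The labelled cell type was checked against markers. Of 10 epithelial carcinoma markers 4 were measured and 0 were called (median -0.15), with KRT8 at a mean signal of 769 beside A2780CBN and 744 beside A2780CBNDXL, KRT18 at 1239 and 1466, and PAX8, a factor of Müllerian epithelium, at 47.0 and 41.2. Their summed signal was 2249 and 2445. KRT7, CDH1, CLDN4 and WT1 were well above background in neither control. The mesenchymal marker VIM was at 120029 and 197959 (0.60 ± 0.55), and CDH2 passed on 4 and 3 arrays, where a spot left out as an outlier counts as not passing. Of 6 leukocyte markers 3 were measured at a low summed signal of 245 and 250 (median -0.11), PTPRC and LYZ were detected on no array, and of the 4 endothelial markers none was measured, with PECAM1, CDH5 and KDR on no array.

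The genes that the study followed up by RT-qPCR were taken as a further list. Of 16 genes 10 were measured, with a median of 0.46. Between the controls 2 were called higher and 0 lower (2.31% and 0.866% over all genes). ANXA1, annexin A1, had signals of 11646, 9742, 9850 and 8732 beside A2780CBN and of 25598, 25872, 22142 and 22979 beside A2780CBNDXL (1.16 ± 0.15). PARP9 had signals of 257, 397, 220 and 227 against 797, 800, 643 and 543. Both were separate between the controls. The conjugating enzyme GSTO1 differed by 0.53 ± 0.04 and GSTO2 by 0.88 ± 0.60, neither called though without overlap, as were 18.2% of all genes. The arrays overlapped for the other measured genes, which were AKR1C3 at -0.17, CYP1B1 at -0.41, FLRT3 at 0.12, GCLC at 0.43, LAYN at 0.12 and MT2A at 0.50. The drug efflux pump ABCB1, its neighbour ABCB4, CDH11 and LGI1 were detected on no array of either control, and CDH7 and PRSS7 had no probe that passed on all 8.

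Detection differed in number too. On all 4 arrays of the control beside A2780CBNDXL and on none of the other, 65 genes were well above background (0.215% of 30238 names), against 11 genes in the reverse case (0.0364%). These counts involve no scaling between arrays, and the pair medians before centring were -0.06, 0.21, 0.23 and 0.09. Spots well above background made up 60.9% to 67.5% beside A2780CBNDXL and 63.6% to 67.0% beside A2780CBN. A part of array brightness in the counts was not tested. Bounds were computed against the lowest signal well above background and reached 2-fold for 42 of the 65 and 8 of the 11. The highest 5 named genes beside A2780CBNDXL were HAND2-AS1, listed as NBLA00301 (at least 17.8-fold higher), IFI16 (at least 12.7-fold higher), CA9 (at least 8.38-fold higher), the homeobox gene HOXD10 (at least 5.69-fold higher) and the small GTPase RAB20 (at least 5.48-fold higher). Beside A2780CBN 4 of the 11 had a name. SOST, a secreted inhibitor of Wnt signalling, had signals of 114, 90.7, 136 and 110 there and was at least 5.89-fold higher, CALB1, GCNT1 and PLA2G2F at least 2.58-fold, 2.47-fold and 1.99-fold.

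The differences between the controls were set beside those between the lines on the same arrays, where the signals of the lines had no background filter. Of the 385 genes called higher beside A2780CBNDXL, 123 were also called higher in A2780CBNDXL than in A2780CBN, 113 were called lower there and 149 were not called. Of the 144 lower genes, 32 were called in the same direction between the lines, 4 in the opposite direction and 108 were not called. Over the 16637 genes both differences correlated at 0.06, which describes genes of the same arrays and is no test. Genes with extreme differences between the lines were then picked after their values were seen. Of the 34 genes that were 5 or more log2 units higher in A2780CBNDXL than in A2780CBN, 18 were called higher between the controls and 0 lower, with a median of 1.04, against 2.31% higher and 0.866% lower over all genes and a median of -0.004. Of the 71 genes at 5 or more lower, 4 were called higher and 5 lower, with a median of 0.11.

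The level of these genes in the control was a varying share of that in the line. For the 18 called genes the signal of the control beside A2780CBNDXL ran from 1.39% to 484% of that of A2780CBNDXL, with a median of 9.79%, was under 10% in 9 genes and exceeded the line in 2. These 2 were XIRP2, with 1855 in the control and 383 in the line, and KANK4, with 2899 and 813. HAND2 in the control beside A2780CBNDXL was at 11.2% of the signal of A2780CBNDXL and BARX1 at 12.5%. SEMA6D, a semaphorin, was at 1.73%, with 217 in this control, 59.5 in the other and 12538 in the line, and BACH2 was at 8.35%. CHODL was at 0.519%, with 258 against a line signal of 49734, and was not called at 0.63. CDH11, a cadherin, was at 10647 in A2780CBNDXL and well above background on no control array. A part of RNA or cells of the resistant line in the control signals was not tested beyond these values.

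**Figure D4:**
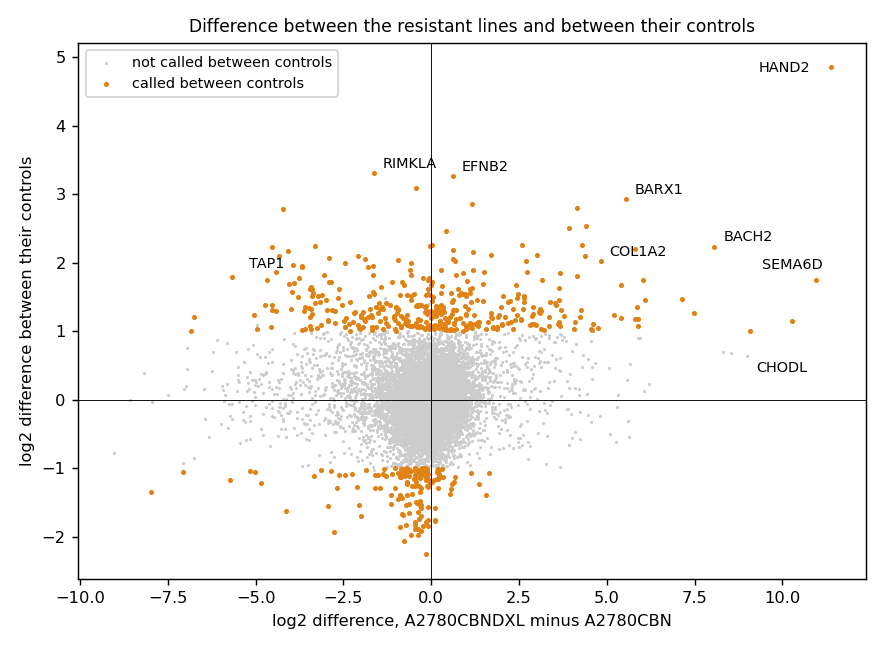
Log2 difference between the resistant lines (A2780CBNDXL minus A2780CBN, x axis) against that between their controls (y axis) for 16637 genes, with the 529 called between the controls in orange. HAND2, BARX1, BACH2 and SEMA6D are high in both, TAP1 is higher in the control but lower in the line, and EFNB2 differs between the controls by 3.26 with little difference between the lines.

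Each line was also set over the other line's control, to see what the difference between the controls does to the ratio. The ratios share the signals of the line, which had no background filter, so only their own values are given. The ratio over the other control is the own ratio moved by the difference between the controls. The direction of each move thus follows from the values above and is no further result. A2780CBN over its own control gave 1618 calls (9.73%) and over the other control 1717 (10.3%), of which 1098 were shared in direction. A2780CBNDXL gave 2394 (14.4%) and 2390 (14.4%), of which 1724 were shared in direction. In each line 1 gene was called in opposite directions. By direction, A2780CBN had 5.49% of all genes higher and 4.24% lower over its own control and 4.98% and 5.34% over the other. A2780CBNDXL had 5.40% higher and 8.99% lower over its own control and 6.05% and 8.32% over the other, so that it leaned lower over all genes as well.

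Among the hypoxia and glycolysis genes A2780CBN had 1 higher and 5 lower members over its own control and 0 higher and 10 lower over the other, with the median going from -0.24 to -1.13. A2780CBNDXL had 0 higher and 11 lower over its own control and 2 and 6 over the other (median -1.16 and -0.39). Thus PFKP in A2780CBNDXL was at -0.39 over its own control and 1.72 over the other, and ENO2 was at -2.65 and 0.20. Among the interferon-stimulated genes A2780CBN had 15 higher and 0 lower over its own control and 13 and 1 over the other (median 2.87 and 1.59), and A2780CBNDXL had 4 and 5 against 8 and 0 (median 0.06 and 0.91). PARP9 in A2780CBNDXL was at 0.06 over its own control and 1.30 over the other, whereas in A2780CBN it was at 3.23 and 1.99. IFIT1 in A2780CBN was at 1.88 and 0.27.

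Cholesterol synthesis genes had 9 higher and 0 lower members in A2780CBN over its own control and 3 and 0 over the other, and 1 higher and 4 lower in A2780CBNDXL against 1 and 0. Of the 10 measured validation genes, A2780CBN had 4 higher and 4 lower over its own control and 3 and 4 over the other. A2780CBNDXL had 3 and 5 against 4 and 4. GSTO1 in A2780CBN went from 1.25 to 0.72, GSTO2 there from 0.69 to -0.19 and GCLC in A2780CBNDXL from -1.22 to -0.79. ANXA1, FLRT3 and LAYN kept their sign. This was fixed, since their ratios far exceed their differences between the controls, 1.16, 0.12 and 0.12. ANXA1 was at -6.70 and -7.86 in A2780CBN and at -5.41 and -4.25 in A2780CBNDXL, and FLRT3 lay between -8.55 and -6.73 and LAYN between -7.40 and -7.07 in both lines over either control.

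**Figure D5:**
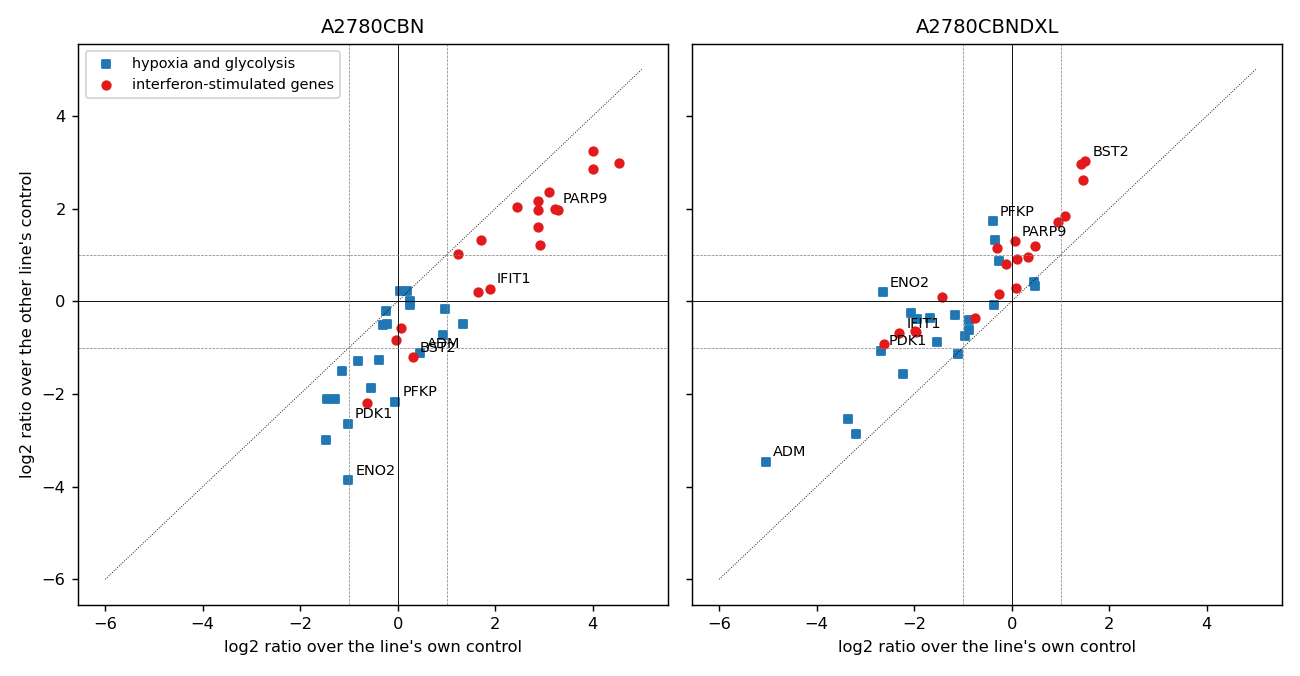
Log2 ratio of A2780CBN (left) and A2780CBNDXL (right) over its own control (x axis) and over the other line's control (y axis) for the measured hypoxia and glycolysis genes (squares) and interferon-stimulated genes (circles), with the diagonal of equal values and lines at 2-fold. Points lie mostly below the diagonal for A2780CBN and above it for A2780CBNDXL, which the difference between the controls fixes, and PFKP in A2780CBNDXL moves from -0.39 to 1.72.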

How the data were processed

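The authors deposited Agilent Feature Extraction output (slide 1 by version 10.7.1.1, slide 2 by version 10.7.3.1, probe coordinates on NCBI36), in which the processed intensity of each channel was background-subtracted, detrended and dye-normalized within the array by the authors. No scaling between arrays is part of these values. The deposited raw and background-subtracted intensities were used only for alternatives. Each array held 43376 spots, 60.9% to 67.5% of them well above background in the control channel, where the median signal was 118 to 144 and no spot was saturated.

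On reverse labelled arrays the dye entries of the labels conflict with the array names. They were turned by name, after which forward and reverse log2 ratios of a line correlated at 0.726 to 0.878 over the probes used. Spots marked as outliers were left out, and a line's ratio was then taken over the remaining arrays. A probe with no spot left on an array counted as not well above background there. Spots of a probe were averaged, and a gene was its probe with the highest mean control signal. Bounds used Aquantile-scaled processed signals, with the dim control at the higher of its own signal and the lowest signal well above background of the array. Of 41000 probes 70.6% had a current symbol by RefSeq.

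The named genes were the 10 highest and 10 lowest called genes with a name, the 5 highest bounds each way, called members of 22 gene lists and the genes the study checked by RT-qPCR. The genes compared, the lists and the rule were chosen with earlier results of these data known. Single values of 3 list members are not reported here. No test was run for the calls, since each control was 1 pooled sample. limma was run as an alternative, and the calculations were tested on simulated data. Computations ran in Python 3.11.15 with numpy 2.4.6, matplotlib 3.10.9 and pandas 2.3.3, and in R 4.3.3 with limma 3.58.1.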

Additional observations from a re-analysis of the deposited data

Results flagged for a closer look

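Among the 57 named genes, SNHG7 had 1 matched pair of arrays far from the others. Its difference was -2.93 in the pair of slide 1 with forward labelling and between -1.59 and -1.34 in the other 3 pairs. This pair holds the lowest SNHG7 signal of the control beside A2780CBNDXL, 104 against 292 to 339 on its other arrays. Chance alone gives about 1 such pair in 20 genes.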

How the results depend on the processing

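Of 529 called genes, 385 higher and 144 lower, the count moved with several choices. Normexp with an offset of 50, loess and Aquantile gave 157 calls (121 higher and 36 lower), of which 151 were among the 529. Reverse pairs alone gave 1330 (757 and 573) and forward pairs alone 783 with 369 lower. Slide 1 alone gave 238 lower genes. Without centring 83 genes were lower. A limit of 1.5-fold gave 1846 (1117 and 729) and of 3-fold 113 (87 and 26). Without the background filter there were 1121 (736 and 385), with a signal of 100 or more on all 8 arrays 330 (238 and 92), and probes in place of genes gave 223 lower. Requiring 2-fold in each labelling direction, chosen after seeing the data, left 272 (217 and 55). Leaving out 1 pair of arrays gave 526 to 643 calls, with 371 to 456 higher and 152 to 207 lower. With the pair as a replicate block limma gave 490 calls and with no replicate block 516. Of 49 called named genes 48 kept their direction in every setting and 18 passed in every setting. BCAN reversed to -0.56 when its probe had to be above background in both channels. In the reverse pairs alone the median of the housekeeping genes was -0.03 and that of the NRF2 targets -0.004. The causes were not tested. Precision is limited by the number of arrays, and 1 pool per control leaves the spread between cultures unknown.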

Other observations

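Probes that the files place on the mitochondrial chromosome were lower beside A2780CBNDXL. They were looked at after the values by chromosome were seen, so no test goes with them. Of 13 genes measured there, 8 were called lower and 0 higher, against 0.866% called lower among all genes, and the median difference was -1.51. All 8 carry accession or probe names, such as AF391805 at -1.76 ± 0.08 and AK311512 at -1.77 ± 0.80, and 1 of the 13, listed as TMEFF2 and at 0.10, bears the name of a nuclear gene. Between the resistant lines the median of the same 13 was -0.14. These transcripts are partly near-identical to nuclear copies, and the probes can share their signal with them.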
